A study of Homo sapiens with 6 samples.

Results

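Transcription factors of the activator protein 1 (AP-1) group and 3 further genes of the immediate-early response were followed gene by gene in SK-BR-3 cells, an established breast cancer line with an amplified HER2 gene, given an siRNA against GRB2. The 10 genes were chosen by symbol, with earlier results of these data known, and were FOS, FOSB, FOSL1, FOSL2, JUN, JUNB, JUND, EGR1, ATF3 and IER2. Each was found once among the 30327 genes of the count table and once among the 29912 genes of the FPKM table, and all 10 had enough reads to be tested. The comparison asks whether the mRNAs of this group differ when GRB2 is lowered. GRB2 is an adaptor protein that links receptor tyrosine kinases such as HER2 to the Ras and ERK kinases.

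AP-1 is a dimer made of a Jun protein and a Fos, Jun or ATF protein, held together by a leucine zipper, and it binds the sequence TGACTCA. Fos and Jun genes, EGR1, ATF3 and IER2 are called immediate-early genes because growth factors and stress raise their transcription quickly and without new protein synthesis. ERK reaches several of them through serum response factor and its ternary complex partners at CArG boxes, and JNK and p38 through Jun and ATF proteins at AP-1-like and cAMP response elements (CRE).

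The study's RNA-seq part has 6 libraries of poly(A) RNA, 3 of cells given a nontargeting siRNA (si_NC) and 3 of cells given a GRB2 siRNA (si_GRB2). All 6 libraries came from the same line cultured with serum, with 1 siRNA sequence per group, and no stimulus of the immediate-early response is named in the sources used here. The harvest time of these libraries is not given there, nor whether the replicates were separate cultures, so p-values measure the spread between these libraries, which may be technical. The labels disagree, since titles and genotype name GRB2 overexpression while descriptions name si_GRB2, and groups were taken from the descriptions. GRB2 had 123.9, 129.5 and 125.7 CPM (TMM-normalized read counts scaled to library size) in si_NC and 27.8, 28.1 and 29.6 CPM in the libraries labelled si_GRB2. It was thus lower in every si_GRB2 library, with a log2 fold change of −2.15 (SE 0.04, adjusted p = 3.87e-15 by edgeR).

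Counted reads ranged from 24810378 to 28532480 per library, and mitochondrial genes took 8.66% to 9.02% of them in si_NC and 7.59% to 7.80% in si_GRB2. Of 10 markers fixed for SK-BR-3, 8 were at 76.5 CPM or more in every library, among them ERBB2 (HER2) at 3410 to 4230 CPM, while GATA3 stayed at 3.06 to 4.41 CPM and CDH1 had 9 reads in all. These markers summed to 17590 to 17980 CPM in si_NC and 14780 to 15360 CPM in si_GRB2. Of 9 tested 5 fell, among them KRT18 (log2 fold change −0.55), EPCAM (−0.55) and KRT8 (−0.41), and 2 rose, ERBB2 (0.24) and FOXA1 (0.36). At the same limit, an adjusted p under 0.05 by edgeR, 15.5% of all tested genes fell and 15.2% rose. Fibroblast markers summed to 4.06 to 6.28 CPM in si_NC and 4.57 to 5.21 CPM in si_GRB2, almost all from COL1A1. Immune markers summed to 1.18 to 2.07 and 0.874 to 1.34 CPM, with PTPRC at 2 reads in all. Endothelial markers summed to 28.9 to 30.9 and 17.5 to 21.4 CPM, nearly all from CDH5, while PECAM1 and KDR had 3 reads each in all. The part of these differences in the results below was not tested.

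Sequences just upstream of the transcription start are shown for the genes on which the results turn, because they hold the elements by which kinase signalling is known to reach this group. They are RefSeq sequences on GRCh38.p14, on the strand of the gene, with positions counted from the start. Capitals mark CArG boxes (the binding sequence of serum response factor), the AP-1 element TGACTCA, the full CRE TGACGTCA, the AP-1-like element TGACATCA known from the JUN promoter and the CRE core TGACG. Each was sought on both strands, and CGTCA is the CRE core on the other strand. The first 3 stretches hold the 150 bases before the start, at chr5:138465329-138465478 (plus strand) for EGR1, chr1:58784048-58784197 (minus strand) for JUN and chr19:13150261-13150410 (plus strand) for IER2.
EGR1: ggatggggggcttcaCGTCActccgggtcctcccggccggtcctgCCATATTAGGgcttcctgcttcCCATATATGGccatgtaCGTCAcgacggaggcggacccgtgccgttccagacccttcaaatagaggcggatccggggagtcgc
JUN: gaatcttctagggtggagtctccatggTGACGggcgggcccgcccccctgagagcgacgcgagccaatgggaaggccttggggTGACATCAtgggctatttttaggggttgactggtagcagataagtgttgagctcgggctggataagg
IER2: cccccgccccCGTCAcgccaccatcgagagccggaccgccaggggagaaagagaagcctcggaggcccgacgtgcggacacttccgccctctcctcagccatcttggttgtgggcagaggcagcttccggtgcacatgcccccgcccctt
EGR1 held 2 CArG boxes, from 105 to 96 and from 83 to 74 bases before the start, and a CRE core on the other strand on either side of them. JUN held TGACATCA from 67 to 60 bases and a CRE core from 123 to 119 bases before the start. IER2 held a CRE core on the other strand from 140 to 136 bases before the start and neither a CArG box nor an AP-1-like element in this window.

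Around single elements, shorter stretches are shown for a gene that passed the test and for 2 that did not, at chr2:28392853-28392877 (plus strand), chr19:18281806-18281831 (minus strand) and chr1:212565275-212565300 (plus strand), because each holds a member of the AP-1 and CRE family of elements.
FOSL2: ccattgtagTGACTCAtctcgggca
JUND: ccgcccccaTGACGTCAacccacaag
ATF3: cctatgataTGACATCAtatggccac
The FOSL2 element lies from 5 to 11 bases after the start, the JUND element from 200 to 193 bases before it, and the ATF3 element from 123 to 116 bases before the first of its 2 starts. For FOSL2 and ATF3 the RefSeq start lies downstream of the first base of the gene in GENCODE 44.

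**Figure D1:**
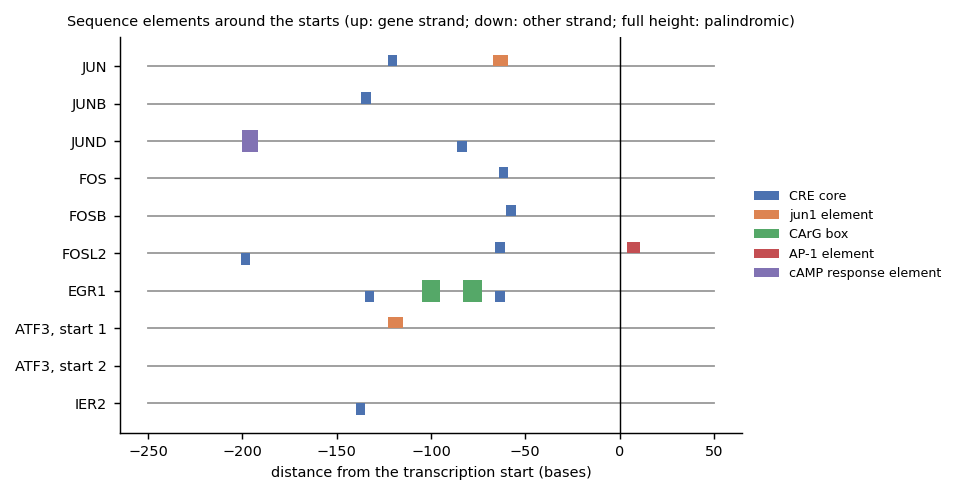
Elements found in the window from 250 bases before to 50 bases after each RefSeq start of the 9 genes with an entry, with distance from the start in bases on the x axis and 1 line per start. Within this window EGR1 alone shows CArG boxes, JUN and the first ATF3 start show TGACATCA (jun1 element), and 8 of the 9 genes show a CRE core.

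Over the whole 300-base window, 9 of the 10 genes had an entry, FOSL1 being the other, and ATF3 had 2. A CRE core was present in 8 of the 9 genes, against 24.6% of all 35116 promoters in the table (the full CRE contains it). This core and TGACATCA were added to the search after the promoters had been seen, so their counts are no evidence of enrichment. A CArG box was present in 1 gene (EGR1) against 1.29% of all promoters, TGACTCA in 1 (FOSL2) against 4.95%, TGACGTCA in 1 (JUND) against 1.85%, and TGACATCA in 2 (JUN and ATF3) against 2.61%. The short core GGAA of ETS factor sites was present in 8 of the 9 genes and in 95.5% of all promoters. Elements further upstream were not sought, so a gene without a match here may hold one outside the window. These matches describe letters in a window and are no evidence of binding in SK-BR-3 cells. In the 3′ UTRs of GENCODE 44, the motif ATTTA, the core of AU-rich elements known from unstable mRNAs, occurred at least once in 9 of the 10 genes, against 71.4% of the 12498 tested protein-coding genes with a 3′ UTR. At least 3 copies occurred in 5 of the 10 genes, against 45.5% of those genes, and per kb of UTR the median was 1.62 copies in the 10 genes and 1.72 in those genes with a UTR of at least 100 bases. FOS had 5 copies in 806 bases (6.2 per kb) and FOSL2 9 in 4869 bases (1.85 per kb), whereas EGR1 had 1 and IER2 had 0.

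Of the 10 genes, EGR1, JUN and FOSL2 fell and IER2 rose in si_GRB2 at an adjusted p under 0.05 (edgeR's quasi-likelihood test over 15801 genes). EGR1 changed by the largest proportion, by 38.7%, and the other 3 by 7.76% to 13.3%. The other 6, which were JUNB, JUND, FOS, FOSB, FOSL1 and ATF3, did not pass the test. The 3 lower genes stand beside 15.5% of all tested genes called lower, and the 1 higher gene beside 15.2% called higher, so 4 of 10 is near the share of all tested genes that changed. Values of both groups did not overlap for the same 4 genes, 3 lower and 1 higher, where 21.2% and 21.1% of all tested genes did so in those directions. With the limits of a differentially expressed gene (DEG, an adjusted p under 0.01 and a change of more than 1.5 times in either direction), 1 of the 10 genes was lower (EGR1) and 0 were higher, against 1.69% and 0.829% of all tested genes. The median log2 fold change of the 10 genes was −0.07 and that of all tested genes 0.0019, and the median size of the change was 0.14 in both. In bulk RNA, fewer cells expressing a gene and less of its RNA per cell cannot be told apart.

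**Figure D2:**
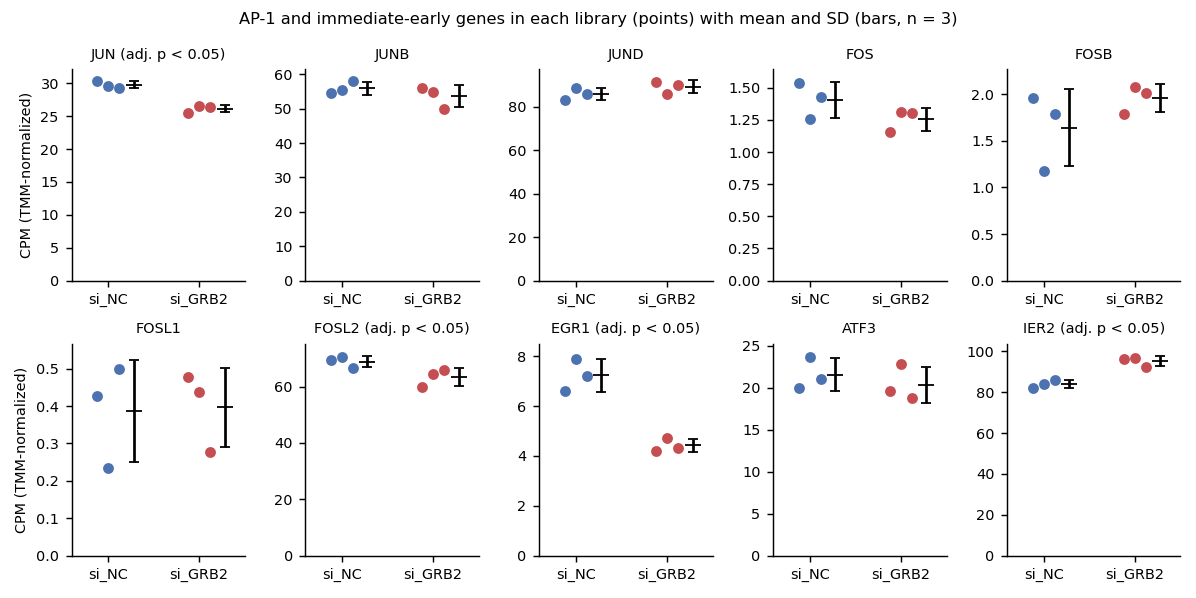
TMM-normalized CPM of each of the 10 genes in the 3 si_NC libraries (blue) and the 3 si_GRB2 libraries (red), with the mean and SD (black, n = 3) and every y axis starting at 0. EGR1 shows the widest gap, from 6.60 to 7.89 CPM in si_NC against 4.21 to 4.73 CPM in si_GRB2, while JUN, FOSL2 and IER2 show narrow gaps and the other 6 genes overlap.

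Per length, the Jun genes were expressed far above the classical Fos genes. By mean FPKM in si_NC, the order was JUND (35.7 ± 2.01, SD, n = 3), JUNB (24.6 ± 1.73), IER2 (21.9 ± 1.27), FOSL2 (7.71 ± 0.146), JUN (6.59 ± 0.157), ATF3 (4.29 ± 0.419), EGR1 (1.85 ± 0.189), FOS (0.35 ± 0.0346), FOSB (0.24 ± 0.0608) and FOSL1 (0.167 ± 0.0611). Each gene exceeded the next in all 6 libraries except JUNB and IER2, where JUNB was the higher in 3 of 6. In si_GRB2 IER2 (25.6 ± 0.89 FPKM, SD, n = 3) stood above JUNB (24.2 ± 1.34 FPKM), and the rest of the order was the same.

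JUN is the founding member of the Jun family and a strong activator as a partner of Fos and ATF proteins. The gene (ENSG00000177606.8) has a single exon at chr1:58776845-58784048 of GRCh38 (minus strand). JUN had 30.3, 29.5 and 29.3 CPM in si_NC and 25.5, 26.5 and 26.4 CPM in si_GRB2. Every si_GRB2 library lay below every si_NC library, and the spread within each group was small. The means were 29.7 ± 0.530 and 26.1 ± 0.533 CPM (SD, n = 3), and JUN fell by 0.19 on the log2 scale (SE 0.05, adjusted p = 0.00621, edgeR). In the authors' FPKM JUN had 6.52, 6.48 and 6.77 against 5.65, 6.18 and 6.09, again with no overlap, yet limma on log2(FPKM + 1) gave an adjusted p of 0.181.

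JUNB, a weaker activator that can oppose JUN in cell growth, is a single-exon gene (ENSG00000171223.6) at chr19:12791486-12793315 (plus strand). It had 54.5, 55.4 and 58.1 CPM in si_NC and 56.0, 54.99 and 49.9 CPM in si_GRB2. The groups overlapped, and the lowest value came from si_GRB2 replicate 3 alone. The log2 fold change was −0.06 (SE 0.05, 95% CI −0.16 to 0.04, adjusted p = 0.370, edgeR). Exons of HOOK2 on the opposite strand overlap those of JUNB. All reads counted for HOOK2, not only those in the overlap, came to 65.4% of the number for JUNB. The sources used here do not state whether the counting used strand, so the level of JUNB is uncertain by an amount not measured here.

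JUND, the Jun gene known for steady expression in resting cells, is a single-exon gene (ENSG00000130522.6) at chr19:18279694-18281622 (minus strand). It had 82.9, 88.6 and 86.0 CPM in si_NC and 91.4, 85.9 and 90.1 CPM in si_GRB2. The groups overlapped because si_GRB2 replicate 2 lay below 2 si_NC libraries. The log2 fold change was 0.06 (SE 0.04, 95% CI −0.03 to 0.14, adjusted p = 0.313, edgeR), so changes in JUND larger than a rise of 9.88% or a fall of 1.76% lay outside the interval. In FPKM, which is not TMM-normalized, the groups did not overlap, with 33.5 to 37.3 in si_NC and 37.7 to 39.1 in si_GRB2.

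Within the Jun family, JUND made up the largest share of the summed FPKM in every library. Its share was 53.4% ± 0.917 (SD, n = 3) in si_NC and 55.9% ± 1.55 in si_GRB2, with overlapping ranges. The share of JUN was 10.3%, 9.66% and 9.60% in si_NC and 8.28%, 8.92% and 8.97% in si_GRB2, without overlap. FPKM of JUND relative to JUN were 5.13, 5.64 and 5.50 in si_NC and 6.73, 6.10 and 6.41 in si_GRB2, also without overlap. The family's summed FPKM overlapped, at 66.9 ± 3.69 and 68.5 ± 0.707 (SD, n = 3). These shares and ratios are descriptions, and none was tested. The shares and the sum include JUNB, whose level is uncertain for the reason given above.

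**Figure D3:**
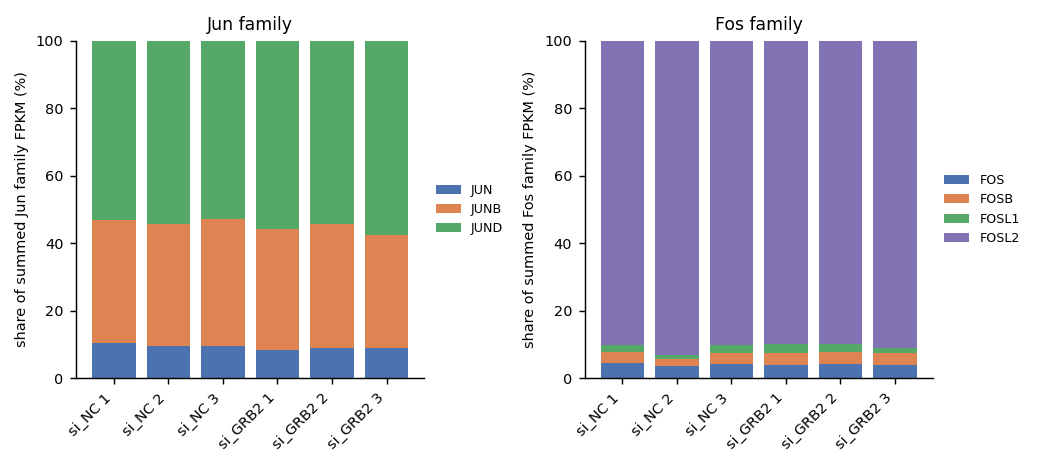
Share of each gene in the summed FPKM of the Jun family (left) and of the Fos family (right), in percent, for each of the 6 libraries. JUND and JUNB take most of the Jun family, and FOSL2 takes 89.8% to 93.1% of the Fos family in every library.

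FOSL2 encodes Fra-2, a Fos-related protein that lacks the strong activation domain of FOS. The gene (ENSG00000075426.12) lies at chr2:28392448-28417317 (plus strand) and had by far the most reads of the 4 Fos genes, at 1509 to 1947 per library. It had 69.4, 70.5 and 66.5 CPM in si_NC and 60.0, 64.5 and 65.9 CPM in si_GRB2. The groups did not overlap, but si_GRB2 replicate 3 came within less than 1 CPM of the lowest si_NC library. FOSL2 fell by 0.12 on the log2 scale (SE 0.04, 95% CI −0.21 to −0.03, adjusted p = 0.0485, edgeR). The call was lost with DESeq2 (adjusted p = 0.0895) and when si_NC replicate 1 (adjusted p = 0.0848), si_NC replicate 2 (0.136), si_GRB2 replicate 1 (0.212) or si_GRB2 replicate 2 (0.082) was left out of edgeR's fit. In FPKM the groups overlapped, at 7.55 to 7.83 in si_NC and 6.71 to 7.69 in si_GRB2.

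FOS, the partner of Jun proteins in classical AP-1, is a gene of 4 exons (ENSG00000170345.10) at chr14:75278826-75282230 (plus strand). It had 43, 32 and 40 reads in si_NC and 29, 36 and 33 reads in si_GRB2. Read numbers overlapped, and in CPM the means were 1.41 ± 0.140 and 1.26 ± 0.0895 (SD, n = 3). The log2 fold change was −0.16 (SE 0.21, 95% CI −0.61 to 0.28, adjusted p = 0.620, edgeR), so at this depth a fall of 34.3% and a rise of 21.4% both lay within the interval.

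FOSB, which is known for a stable short protein form, lies at chr19:45467995-45475179 (plus strand, ENSG00000125740.14). It had 55, 30 and 50 reads in si_NC and 45, 57 and 51 reads in si_GRB2. The low value of si_NC replicate 2 set it apart from the other 5 libraries, among which the groups overlapped. The log2 fold change was 0.25 (SE 0.21, 95% CI −0.19 to 0.69, adjusted p = 0.417, edgeR), and it was 0.06 when si_NC replicate 2 was left out.

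FOSL1 encodes Fra-1, a Fos protein known for high levels in basal-like breast cancer lines, and lies at chr11:65892049-65900573 (minus strand, ENSG00000175592.9). It had 12, 6 and 14 reads in si_NC and 12, 12 and 7 reads in si_GRB2, the lowest numbers of the 10 genes. The log2 fold change was 0.02 (SE 0.40, 95% CI −0.82 to 0.87, adjusted p = 0.977, edgeR) and turned negative when any of 3 libraries was left out, so no direction can be given for FOSL1 at this depth. Within the Fos family, FOSL2 held 91.1% ± 1.76 (SD, n = 3) of the summed FPKM in si_NC and 90.2% ± 0.675 in si_GRB2, with overlapping ranges. Summed FPKM of the Jun family relative to that of the Fos family was 7.90 ± 0.330 in si_NC and 8.45 ± 0.606 in si_GRB2, with overlapping ranges too.

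EGR1 encodes a zinc finger transcription factor that binds GC-rich promoters and is a standard readout of ERK activity. The gene (ENSG00000120738.8) has 2 exons at chr5:138465479-138469303 (plus strand), just downstream of the 2 CArG boxes shown above. It had 185, 201 and 202 reads in si_NC and 106, 130 and 109 reads in si_GRB2, which are 6.60, 7.89 and 7.20 CPM and 4.21, 4.73 and 4.31 CPM. The highest si_GRB2 library lay well below the lowest si_NC library in reads, CPM and FPKM alike. The means were 7.23 ± 0.646 and 4.42 ± 0.278 CPM (SD, n = 3), and EGR1 fell by 0.71 on the log2 scale (SE 0.12, 95% CI −0.96 to −0.46, adjusted p = 0.000235, edgeR). As a percent change the interval runs from −48.4% to −27.2% and so includes the 1.5-fold limit, and EGR1 was not called when the test itself was set against that limit (edgeR's glmTreat, adjusted p = 1.00). The call at an adjusted p under 0.05 held with DESeq2, with limma on FPKM and without any single library.

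ATF3, a stress-induced protein of the CREB and ATF group that can pair with Jun proteins, lies at chr1:212565334-212620777 (plus strand, ENSG00000162772.17). It had 19.9, 23.7 and 21.1 CPM in si_NC and 19.6, 22.8 and 18.8 CPM in si_GRB2. The groups overlapped broadly, and in each group replicate 2 was the highest. The log2 fold change was −0.08 (SE 0.08, 95% CI −0.24 to 0.09, adjusted p = 0.506, edgeR).

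IER2, a nuclear protein induced early after growth factors, lies at chr19:13150411-13154911 (plus strand, ENSG00000160888.7). It had 82.1, 84.2 and 85.8 CPM in si_NC and 96.4, 96.9 and 92.3 CPM in si_GRB2. Every si_GRB2 library lay above every si_NC library in CPM and in FPKM (20.8 to 23.3 against 25.1 to 26.6), whereas unscaled read numbers overlapped. FPKM, here and for the other genes, come from the same libraries but lack the TMM factors. These factors were 0.976 to 0.988 in si_NC and 1.015 to 1.020 in si_GRB2. Over the genes tested by edgeR, the median log2 fold change was 0.0019 in edgeR's fit and 0.024 with limma on log2(FPKM + 1). For IER2 the means were 84.0 ± 1.87 and 95.2 ± 2.54 CPM (SD, n = 3), and IER2 rose by 0.18 on the log2 scale (SE 0.04, 95% CI 0.10 to 0.26, adjusted p = 0.00102, edgeR). The call was lost in limma on log2(FPKM + 1), with an adjusted p of 0.0698. A gene on the opposite strand that overlaps its exons had 5.61% as many reads.

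IER2 and EGR1 thus moved in opposite directions between the same libraries. FPKM of IER2 relative to EGR1 were 12.7, 10.9 and 12.1 in si_NC and 23.2, 20.8 and 21.8 in si_GRB2. These ratios averaged 11.9 ± 0.919 and 21.9 ± 1.23 (SD, n = 3). They could not overlap, because the FPKM of each gene already lay apart in opposite directions, so they add no result to those of the single genes. Within si_GRB2, replicate 2 was the highest library for 6 of the 10 genes and replicate 1 the lowest for 5.

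**Figure D4:**
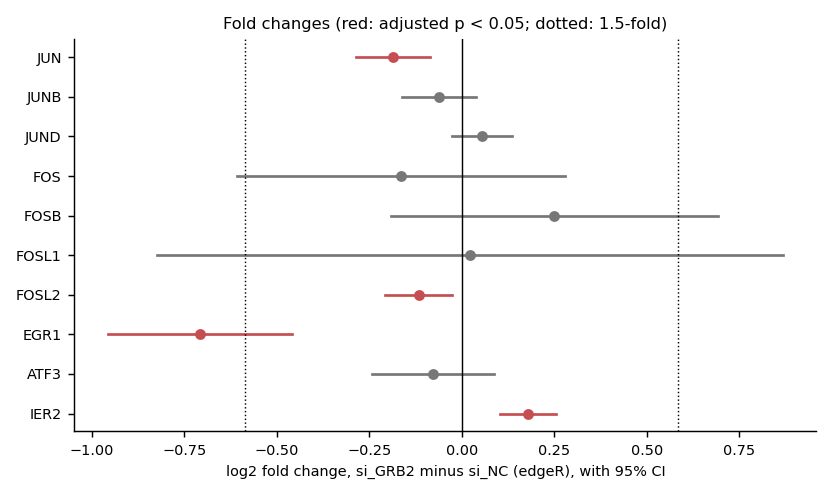
Log2 fold change of si_GRB2 against si_NC for each of the 10 genes (points) with its 95% confidence interval (lines) from edgeR's quasi-likelihood test, in red where the adjusted p is under 0.05, with dotted lines at a 1.5-fold change. Intervals are narrow for JUN, JUNB, JUND, FOSL2 and IER2 and wide for FOS, FOSB and FOSL1, which had 6 to 57 reads per library.

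The exact permutation test of group means (two-sided) gave p = 0.1 for EGR1, JUN, FOSL2 and IER2 alike, the smallest p that 3 libraries against 3 allow, so the calls rest on the spread that edgeR shares across genes.

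Genes that act with or around this group were described from fixed lists, which were chosen with earlier results of these data known. Where 5 or fewer members changed in a direction, the genes are named, some of them after their values were seen. Among 25 other bZIP genes whose proteins can pair with Fos or Jun, or are related to such partners, 20 were tested, of which 4 rose and 4 fell (all tested genes, 15.2% and 15.5%), with a median log2 fold change of 0.06. MAFK, a small Maf protein without an activation domain, fell from 128.0 ± 0.467 to 83.1 ± 1.29 CPM (SD, n = 3), or by −0.62 on the log2 scale (SE 0.03, adjusted p = 7.45e-10, edgeR), and was the 1 DEG. ATF5 (−0.44), CEBPB (−0.24) and JDP2 (−0.24), the last a repressor that pairs with Jun, also fell on the log2 scale. ATF1 (0.42), a CRE-binding relative of CREB, NFE2L1 (0.33), ATF6 (0.29) and BATF (0.13) rose.

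Among 40 other immediate-early genes, 34 were tested, of which 8 rose and 9 fell (all tested genes, 15.2% and 15.5%), with a median log2 fold change of 0.0026, so this list was divided in direction. CCN2, a secreted matrix protein, was the 1 DEG (lower DEGs among all tested genes, 1.69%). It fell from 6.94 ± 0.218 to 4.19 ± 0.205 CPM (SD, n = 3), with a log2 fold change of −0.73 (SE 0.11, adjusted p = 0.000128, edgeR). GADD45B (−0.58), a stress-induced regulator of MAP kinase signalling, and PLK3 (−0.55), a stress-induced kinase, fell on the log2 scale. HBEGF, a ligand of the EGF receptor, had 1.57, 1.73 and 1.11 CPM in si_NC and 2.38, 1.93 and 2.37 CPM in si_GRB2 and rose by 0.60 on the log2 scale (adjusted p = 0.0346, edgeR). The adjusted p for HBEGF was above 0.05 with DESeq2 (0.111) and without si_NC replicate 1 (0.0503), si_NC replicate 3 (0.145), si_GRB2 replicate 1 (0.106) or si_GRB2 replicate 3 (0.112). The number of higher genes in the list was 5 without si_NC replicate 1, si_NC replicate 3 or si_GRB2 replicate 3, and 5 with DESeq2.

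Among 28 kinases, cofactors and ubiquitin ligases known to act on Fos and Jun genes or proteins, all were tested, of which 6 rose and 5 fell (all tested genes, 15.2% and 15.5%). The median log2 fold change was 0.03. None was a DEG, against 0.829% of all tested genes that were higher DEGs and 1.69% that were lower DEGs. ELK3 (−0.45), a ternary complex factor that can repress CArG-box genes, NAB2 (−0.23), a corepressor of EGR1, MAPK8 (−0.21), which encodes JNK1, and MRTFB (−0.18), a coactivator of serum response factor, fell on the log2 scale. ELK4 (0.29), another ternary complex factor, and RPS6KA1 (0.27), a kinase downstream of ERK, had the largest rises. The count of higher genes was 3 without si_NC replicate 1, and that of lower genes 3 without si_NC replicate 2, without si_GRB2 replicate 1 and with DESeq2. These are mRNA levels, and phosphorylation, through which these kinases act, was not measured.

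The list of 30 genes known as AP-1 targets differed from the other lists in its counts. Of 23 tested, 9 were DEGs, all of them lower (lower DEGs among all tested genes, 1.69%). At an adjusted p under 0.05, 16 of the 23 fell (all tested genes, 15.5%) and 1 rose (15.2%), with a median log2 fold change of −0.55. The study had named 5 of these genes (among them CCND1, PLAU, CCL2 and MT2A) from these samples. Among the 18 others 11 fell, 1 rose and the median was −0.42. The whole list was chosen with earlier results of these data known, so neither part is independent evidence of the list's direction. LIF, a cytokine, fell from 1.03, 1.30 and 2.21 CPM in si_NC to 0.358, 0.510 and 0.434 CPM in si_GRB2. The groups did not overlap, and the log2 fold change was −1.79 (SE 0.33). The call of LIF was lost in limma on log2(FPKM + 1), with an adjusted p of 0.117.

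Further DEGs of that list were CCL2, a chemokine (log2 fold change −1.63), MT2A, a metallothionein (−1.28), PHLDA1 (−1.18), CCND1, which encodes cyclin D1 (−0.85), EMP1 (−0.84), CD44, the hyaluronan receptor (−0.79), and PLAU, the urokinase gene (−0.70). MT2A and KRT18 belong to families with close copies or pseudogenes among which reads can be split, so their levels are less certain. KRT18 also stands among the SK-BR-3 markers that fell. IL11 (−0.66), KRT18 (−0.55) and MMP9 (−0.55) were the largest of the further falls, but the calls of IL11 and MMP9 were lost with DESeq2 (adjusted p = 0.105 and 0.125). The call of IL11 was lost without si_NC replicate 2 (adjusted p = 0.0517), si_GRB2 replicate 1 (0.0711) or si_GRB2 replicate 3 (0.0569) in edgeR's fit. That of MMP9 was lost without any single library other than si_GRB2 replicate 1, with adjusted p from 0.0559 to 0.171. F3, the tissue factor gene, was the 1 gene that rose (0.29). The genes of the list are also under the control of other factors, and binding of AP-1 was not measured.

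**Figure D5:**
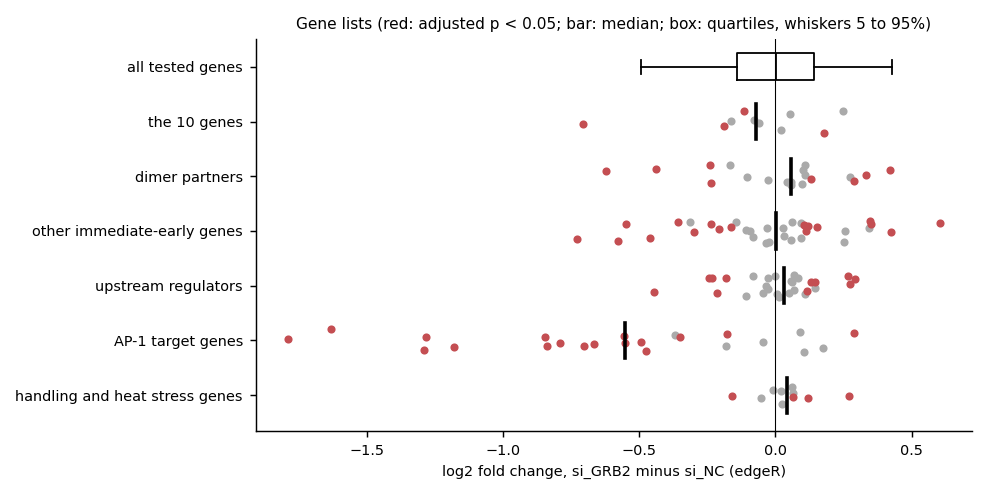
Log2 fold change of si_GRB2 against si_NC for the tested genes of each list (points, red where the adjusted p is under 0.05, black bar at the median), below a box of all 15801 tested genes (quartiles, whiskers from the 5th to the 95th percentile). The AP-1 target genes lie mostly to the left, with a median of −0.55, while the medians of the other lists lie between −0.07 and 0.06.

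Immediate-early genes also respond to handling of cells, so 10 heat stress genes were examined in the same fit. HSPH1 (0.27), HSP90AA1 (0.12) and HSPA8 (0.06) rose and BAG3 (−0.16) fell on the log2 scale, and the other 6 did not pass the test. Of all tested genes, 15.2% rose and 15.5% fell. The summed level of the list was 5667 to 5823 CPM in si_NC and 5995 to 6069 CPM in si_GRB2, and its part in the values of the 10 genes was not tested.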

How the data were processed

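Poly(A) RNA was sequenced with a strand-marking kit. Per the labels and the paper's methods, the authors trimmed the reads, aligned them to GRCh38 with HISAT2 and deposited the unnormalized count of reads per gene and, in a separate table, the FPKM of each gene, rounded by the authors. The counting tool, its use of strand and the annotation release are not given in the sources used here.

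The whole count table was fitted with edgeR 4.0.16 (R 4.3.3): TMM factors, filterByExpr (15801 genes kept), glmQLFit and glmQLFTest on 3 against 3 libraries, and p-values were adjusted by the Benjamini-Hochberg method over those genes. SE is the log2 fold change over the square root of F. A gene changed if its adjusted p was under 0.05, and a DEG had an adjusted p under 0.01 and changed by more than 1.5 times in either direction. The fits were tested on simulated data. CPM are TMM-normalized, and shares and ratios used the deposited FPKM. Alternatives were DESeq2 1.42.0, edgeR with its size factors or with upper-quartile factors, no filter or a minimum of 10 counts in every library, glmTreat, an unadjusted p under 0.01, a replicate block, limma 3.58.1 on log2(FPKM + 1), with and without a minimum mean FPKM of 1, and on log2(FPKM + 0.1), and each library left out.

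Named were GRB2, the 10 genes, every DEG of each list and the 3 largest other changes in it. The values of some list genes are not reported here, although the counts over the lists include them. EGR4 and MMP10 were on the lists but matched no symbol in the tables used. The members and lists were chosen with earlier results of these data known. The motifs TGACG and TGACATCA were added after the promoters had been seen. Promoters came from RefSeq (GRCh38.p14, 250 bases before to 50 after the start, 9 of 10 genes matched) and gene positions from GENCODE 44, and Python 3.11.15 with matplotlib 3.10.9 made tables and figures. The fRIP-seq part of the study was not analysed here.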

Additional observations from a re-analysis of the deposited data

How the results depend on the processing

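The fall of EGR1 and the rise of IER2 kept their direction under all 16 alternatives, as did the falls of JUN and FOSL2, and no fit changed the sign of a gene of the 10 except FOSL1. Its log2 fold change was −0.12 without si_GRB2 replicate 1, −0.05 without si_GRB2 replicate 2 and −0.23 without si_NC replicate 2, and leaving out single libraries moved it between −0.23 and 0.24 (0.235 without si_NC replicate 3). With single libraries left out, log2 fold changes ranged from −0.78 to −0.65 for EGR1, from −0.20 to −0.17 for JUN, from −0.15 to −0.08 for FOSL2 and from 0.16 to 0.20 for IER2.

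The number of the 10 genes called lower was 1 (EGR1) with limma on log2(FPKM + 1), log2(FPKM + 0.1) and log2(FPKM + 1) at a mean FPKM of at least 1, and 0 with glmTreat, against 3 in the reported fit. The number called higher was 0 with glmTreat and with limma on log2(FPKM + 1) and log2(FPKM + 0.1). The number of lower DEGs among the 10 was 0 in those 4 fits. Among all tested genes, higher and lower DEGs numbered 131 and 267 in the reported fit, 11 and 45 with glmTreat, 25 and 54 with log2(FPKM + 1), 52 and 92 with log2(FPKM + 0.1), and 31 and 65 at a mean FPKM of at least 1. At an adjusted p under 0.05, 2396 were higher and 2442 lower in the reported fit, 16 and 65 with glmTreat, 834 and 566 with log2(FPKM + 1), 927 and 607 with log2(FPKM + 0.1), and 1702 and 987 at a mean FPKM of at least 1, so FPKM shifted the balance towards higher calls. glmTreat tests against a fold change of 1.5 and so by construction calls fewer genes; the cause of the other differences was not tested. Of the AP-1 target genes, 0 were higher and 6 lower with glmTreat, and 10 were lower at a mean FPKM of at least 1, where fewer genes are tested. Counts over the other 4 lists stayed within 1.5 times in 94 of 128 refits. The 26 list genes chosen by the naming rule kept direction and call in 357 of 409 refits, lost the call in 52 and reversed in 0.

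Deviations of same-numbered libraries from their group means had correlations of 0.232, −0.0948 and 0.0804 for replicates 1, 2 and 3. The value for replicate 1 was the highest of all pairs. The next was 0.228, between si_NC replicate 3 and si_GRB2 replicate 2, and not every library correlated best with its own number. These values do not settle whether the replicates were paired. With a replicate block, 2 of the 10 genes were lower and 1 higher, and FOSL2 had an adjusted p of 0.0539 in edgeR's fit. FOS, FOSB and FOSL1, with 6 to 57 reads per library, are limited by depth.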
